A study of Mus musculus with 12 samples.

Results

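The comparison described here sets 3 libraries labelled NICD_TCFWT, whose columns are named RNIC.CTRL, against 3 labelled NOTCHWT_TCFWT, whose columns are named RAD. They are 6 of the 12 libraries of a study of mouse LSK cells, the Lin- Sca1+ cKit+ fraction of bone marrow that holds blood stem cells and multipotent progenitors. The label NOTCHWT_TCFWT stands for wild type mice given a control injection of poly(I:C) at 2 ug/g. NICD_TCFWT stands for R26 N1IC lox/+ Mx1Cre mice given the same dose. N1IC is the intracellular domain of Notch1, which signals without a ligand, and Mx1Cre is a recombinase switched on by the interferon that poly(I:C) elicits, in any cell that responds to interferon. Cells labelled NICD_TCFWT were sorted in addition as CD45.2+ eGFP+, so that genotype, this gate and the label cannot be told apart. All mice were C57BL/6J; Sv/129. The labels do not say whether replicates came from separate mice, so a p-value here reflects only how these libraries spread. The other 6 libraries carry the label TCFKO. They entered the filter on low counts, the scaling and the estimate of the spread. The differences among them are given only in a closing section. The groups are called below by their column names, RNIC-CTRL for the libraries labelled NICD_TCFWT and RAD for those labelled NOTCHWT_TCFWT, because direct Notch target genes ran against the N1IC label. In the order NOTCHWT_TCFWT, NICD_TCFWT, NICD_TCFKO and NOTCHWT_TCFKO the group means of the target Dtx1 were 85.4, 0.124, 121 and 0.208 CPM. In the same order those of Tcf7, the gene deleted under the TCFKO labels, were 14.8, 5.5, 603 and 1.28 CPM, so that this gene too ran against the NICD_TCFKO label. Whether labels or columns of some groups are exchanged was not tested, and every fold change below has the sign that the deposited labels give it.

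Notch receptors are cut by proteases when they bind a ligand on a neighbouring cell, and the released intracellular domain joins the DNA-binding protein RBPJ and Mastermind co-activators to switch on genes of the Hes and Hey families, Dtx1 and Nrarp. In the thymus this signal directs progenitors to the T lineage and away from the myeloid and B lineages. In bone marrow LSK cells it is normally weak, and a forced Notch1 intracellular domain is known to start T lineage genes there.

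Totals were between 30453271 and 43790674 counts per library, and expression is given as CPM, counts scaled to a common library size after TMM normalization, with 3 counts in the shallowest library equal to 0.0985 CPM. Where 3 values are given for a group, they are its replicates 1 to 3 in that order, and ± after a fold change is its standard error (SE). The 4 markers set for the gate, Kit, Ly6a (Sca1), Cd34 and Ptprc, summed to 1980 to 2310 CPM in RAD and 2290 to 2620 CPM in RNIC-CTRL. Cd34, which is not part of the Lin- Sca1+ cKit+ definition, was the only 1 of them to pass the test described below. It was higher in RNIC-CTRL. Ly6a and Ptprc were lower in every RNIC-CTRL library than in any RAD library. Ptprc was at 507, 605 and 460 CPM in RAD and 376, 410 and 378 CPM in RNIC-CTRL. For Kit the groups overlapped. Markers of T cells, with Lck as the most abundant, summed to 360 to 401 CPM in RAD and 27.7 to 49.6 CPM in RNIC-CTRL. Of this set Cd3g and Trac were at 0 in RNIC-CTRL and at 0.117 CPM or less in RAD, at or near the floor in both groups. Markers of neutrophils and monocytes summed to 179 to 293 CPM in RAD and 617 to 974 CPM in RNIC-CTRL. Of these 10 genes only Ccr2 passed the test described below. It was at 15.6, 9.52 and 10.9 CPM in RAD and 424, 448 and 648 CPM in RNIC-CTRL. In the same order markers of macrophages summed to 5.29 to 5.45 and 8.47 to 21.3 CPM. Those of erythroid cells summed to 43.6 to 573 and 31.1 to 143 CPM. The part of these cells in the results was not tested, and in bulk RNA fewer cells of a type and less RNA per cell cannot be told apart. Xist was at 3242 CPM or more in the 3 RAD libraries and RNIC-CTRL 3, and at 1.88 CPM or less in RNIC-CTRL 1 and 2, which had 308 and 328 CPM of Y-linked transcripts, so RNIC-CTRL 3 was the only library of its group that matched RAD in this respect. The number that ends the column names recurs in replicates 1 and 3 of both groups. Log2 CPM correlated at 0.966 to 0.982 within the groups and at 0.923 to 0.941 between them.

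Of 16024 genes tested, 1701 (10.6%) rose and 1562 (9.75%) fell in RNIC-CTRL against RAD by edgeR's quasi-likelihood test at a Benjamini-Hochberg adjusted p under 0.05, 20.4% in all. At least 2-fold changes made up 989 of the higher (6.17% of genes tested) and 612 of the lower genes (3.82%), and 47 and 29 genes differed 100-fold or more by the fitted value. The 989 genes held 0.458% to 0.606% of the counts of the RAD libraries and 2.22% to 2.79% of those of RNIC-CTRL. The 612 genes held 2.79% to 3.26% in RAD and 0.871% to 0.899% in RNIC-CTRL. The groups did not overlap in 7080 of the 16024 genes, among them 3233 of the 3263 called in either direction. The call held whichever library was left out for 858 higher and 769 lower genes. By gene list the share called in either direction was 16.7% for B lineage genes. It was 28.6% to 38.5% for granule protein, Wnt, T lineage regulator, fatty acid, class II, chromatin and chemokine genes. It was 40% to 42.9% for lysosomal, ribosomal protein, adhesion, stem cell, glycolysis, gate, megakaryocyte and Hox genes. It was 47.5% to 64.7% for cytokine receptor, T cell receptor, macrophage, granzyme, imprinted, interferon, myeloid factor, lymphoid-primed and Notch target genes. A fit with RNIC-CTRL 3 as the only library of its group, added after seeing the data and assuming that it varies like the other groups, has less power by construction and called 548 higher and 366 lower. Counts from it are given below as passing with RNIC-CTRL 3 alone. Other alternatives named below were DESeq2, limma-voom, RLE size factors, other filters on low counts, the 6 libraries alone and replicates 1 and 2 only. The replicate number as a block, a covariate for Y-linked transcripts and a term called the sample sheet term were used as well. That term set replicate 3 of every group except NOTCHWT_TCFKO apart from all other libraries. It stands for a batch inferred from the recurring numbers in the column names, which the labels do not name.

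**Figure D1:**
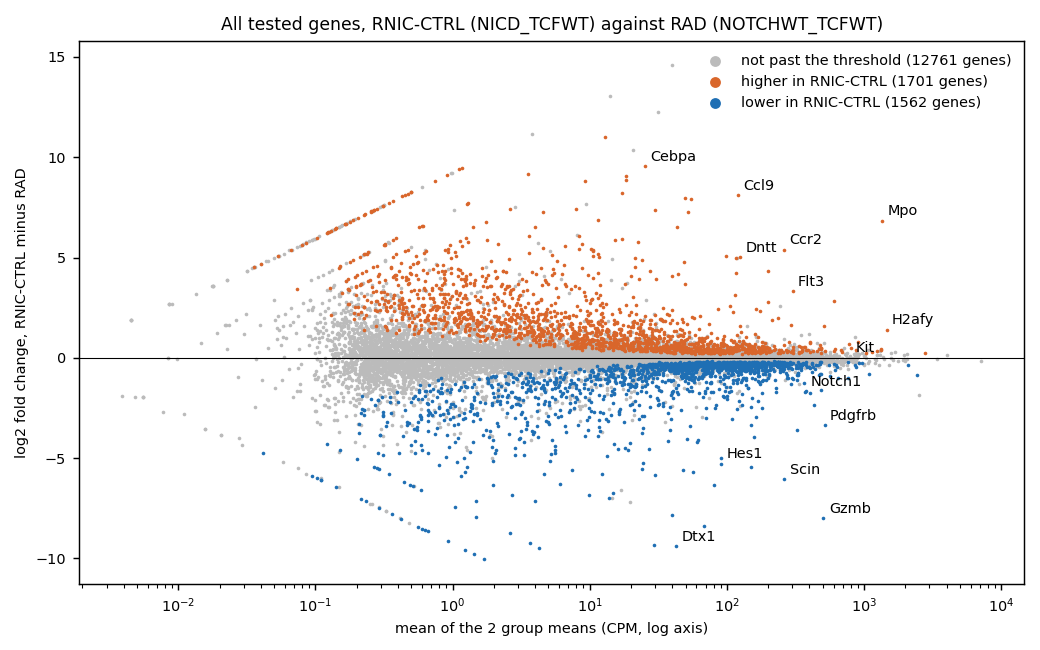
Each point is 1 of the 16024 genes tested, with the mean of the 2 group means in CPM on a log axis and the log2 fold change, RNIC-CTRL (labelled NICD_TCFWT) minus RAD (labelled NOTCHWT_TCFWT), on the other. The 1701 genes in orange and 1562 in blue passed the test. Dtx1, Gzmb, Scin and Hes1 lie at the lower edge and Cebpa, Ccl9, Mpo and Ccr2 at the upper one. Diagonal lines at low CPM are genes without counts in 1 group, and the grey points above 10 include Y-linked genes.

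Direct Notch targets were lower more often than higher in the libraries labelled NICD_TCFWT, although N1IC is a form of active Notch1. Of 17 targets tested 8 fell and 3 rose, with a median log2 fold change of -1.96 beside 0 over all genes tested. All 8 lower calls held whichever library was left out, and 7 targets fell with RNIC-CTRL 3 alone. The largest change was in Dtx1 (ENSMUSG00000029603, chromosome 5, 120680202 to 120711927), which encodes the Notch-binding ubiquitin ligase Deltex. It was at 81.5, 82.8 and 91.9 CPM in RAD and 0.0543, 0.154 and 0.162 CPM in RNIC-CTRL. All 3 RAD libraries lay close together and all 3 RNIC-CTRL libraries near the floor of detection, a log2 fold change of -9.39 ± 0.57 (adjusted p = 8.91e-06).

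The transcriptional repressors of the Hes and Hey families, which carry out much of the Notch response, fell as well, with the exception of Hes5. Hes1 (ENSMUSG00000022528, chromosome 16, 30064384 to 30067796) was at 163, 230.4 and 138 CPM in RAD and 7.33, 4.83 and 1.46 CPM in RNIC-CTRL. Every RAD library exceeded every RNIC-CTRL library more than 10 times, and RNIC-CTRL 3 was the lowest, for a log2 fold change of -5.28 ± 0.83 (adjusted p = 0.00278). Its relative Hey1 was at 69.8, 109 and 61.4 CPM in RAD and 0.570, 0.360 and 0.108 CPM in RNIC-CTRL, with RAD 2 highest for both genes, and fell by 7.84 ± 1.00 on the log2 scale (adjusted p = 0.000864). Heyl was at 1.76, 1.39 and 4.18 CPM in RAD and 0, 0 and 0.135 CPM in RNIC-CTRL, 5 counts in RNIC-CTRL in all, and its log2 fold change of -5.68 ± 1.13 ranged from -9.55 to -5.05 with 1 library left out at a time, moved most by RNIC-CTRL 3. Hey2 was at 0.548, 0.926 and 1.45 CPM in RAD and 0, 0.0257 and 0 CPM in RNIC-CTRL, 1 count in RNIC-CTRL in all, 114-fold (95% exact binomial interval 20 to 4540, counting error only) lower. Hes5, at 3.81, 3.14 and 2.47 CPM in RAD and 1.55, 1.36 and 1.03 CPM in RNIC-CTRL, had groups that did not overlap but missed the threshold (adjusted p = 0.0653; 0.0168 to 0.24 in the alternatives beyond leaving out 1 library, passing in DESeq2, limma-voom, the 6 libraries alone and replicates 1 and 2 only). Nrarp, an ankyrin-repeat protein that limits Notch signalling and is itself a target, varied little within either group. It was at 121, 108 and 114 CPM in RAD and 6.79, 6.5 and 5.17 CPM in RNIC-CTRL, a log2 fold change of -4.21 ± 0.16 (adjusted p = 1.72e-07).

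The receptors Notch1 and Notch3 are targets of the pathway as well. Notch1 (ENSMUSG00000026923, chromosome 2, 26457903 to 26516663) was at 541, 622 and 549 CPM in RAD and 195, 188 and 157 CPM in RNIC-CTRL, with no overlap. Its log2 fold change was -1.66 ± 0.22 (adjusted p = 0.000707). Any reads of the transgene that were counted as Notch1 are part of this value, which does not separate transgene from endogenous RNA. Notch3 was at 42.9, 53.1 and 39.3 CPM in RAD and 4.8, 3.5 and 3.6 CPM in RNIC-CTRL and fell with a log2 fold change of -3.51 ± 0.40 (adjusted p = 0.00037). Of the other targets Il2ra, the interleukin 2 receptor alpha chain, was at 1.27, 1.06 and 3.38 CPM in RAD and 0.326, 0.334 and 0.108 CPM in RNIC-CTRL (adjusted p = 0.092). Tcf7 (ENSMUSG00000000782, chromosome 11, 52252371 to 52283014), which encodes the T cell factor TCF-1, was at 14.3, 10.5 and 19.6 CPM in RAD and 5.05, 4.68 and 6.76 CPM in RNIC-CTRL. All RAD libraries were above all RNIC-CTRL libraries, but the log2 fold change of -1.43 ± 0.59 missed the threshold (adjusted p = 0.121). It passed in a fit of the 6 libraries alone, which leaves out the TCFKO libraries, where Tcf7 spread from 0.267 to 896 CPM. The adjusted p was 0.00894 to 0.579 over the alternatives beyond leaving out 1 library. Ptcra, the pre-T cell receptor chain, had 1 count in the 6 libraries together.

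The 3 targets that rose were Myc, Il7r and Ccnd1. Myc, a growth-promoting transcription factor, was at 267, 253 and 295 CPM in RAD and 346, 396 and 471 CPM in RNIC-CTRL, a log2 fold change of 0.57 ± 0.11 (adjusted p = 0.00444). Il7r, the interleukin 7 receptor, was at 0.260, 0.430 and 0.724 CPM in RAD and 4.37, 2.29 and 7.63 CPM in RNIC-CTRL and rose by 3.30 ± 0.57 on the log2 scale (adjusted p = 0.00336). Ccnd1, cyclin D1, was at 15.5, 19.4 and 23.9 CPM in RAD and 109.5, 80 and 33.9 CPM in RNIC-CTRL. RNIC-CTRL 3 lay nearest to RAD, and the call (adjusted p = 0.0178) was not past the threshold without RAD 1 or 2 or without RNIC-CTRL 1, at an adjusted p of up to 0.0631.

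The core machinery of the pathway changed in few members. Of 34 genes tested, 6 fell and 2 rose, a share of 23.5% near the 20.4% of all genes, with a median of 0.0203. With RNIC-CTRL 3 alone 2 fell. Rbpj, which encodes the DNA-binding partner, was at 178, 179 and 172 CPM in RAD and 146, 149 and 148 CPM in RNIC-CTRL and fell by 0.26 ± 0.059 on the log2 scale (adjusted p = 0.0113). Mib1, a ubiquitin ligase that activates ligands, fell by 0.38 ± 0.075 on the log2 scale (adjusted p = 0.00523). Fbxw7, which directs the cleaved receptor to degradation, was at 37.8, 43 and 44 CPM in RAD and 28.5, 31.4 and 31.3 CPM in RNIC-CTRL (adjusted p = 0.0206, not past the threshold without RAD 2 or 3 or without RNIC-CTRL 1, at an adjusted p of up to 0.0735). The ligand gene Dll1 was at 2.08, 0.727 and 1.91 CPM in RAD and 0.244, 0.129 and 0.406 CPM in RNIC-CTRL and fell by 2.59 ± 0.58 on the log2 scale (adjusted p = 0.0102). The ligand gene Jag2, at 6.49, 9.59 and 6.44 CPM in RAD and 25.3, 18.6 and 12.2 CPM in RNIC-CTRL, rose (adjusted p = 0.0157, not past the threshold without RAD 1 or 3 or without RNIC-CTRL 1, at an adjusted p of up to 0.064). Lfng, a glycosyltransferase that tunes which ligands the receptors bind, was at 17.2, 17.5 and 14 CPM in RAD and 39.2, 34.5 and 31.8 CPM in RNIC-CTRL and rose by 1.12 ± 0.19 on the log2 scale (adjusted p = 0.0023). Notch2, the other abundant receptor, was at 207, 216 and 225 CPM in RAD and 216, 206 and 191 CPM in RNIC-CTRL, groups that overlapped (adjusted p = 0.562). The Mastermind genes Maml1 and Maml2 did not pass either, with log2 fold changes of -0.05 ± 0.078 and 0.02 ± 0.20.

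**Figure D2:**
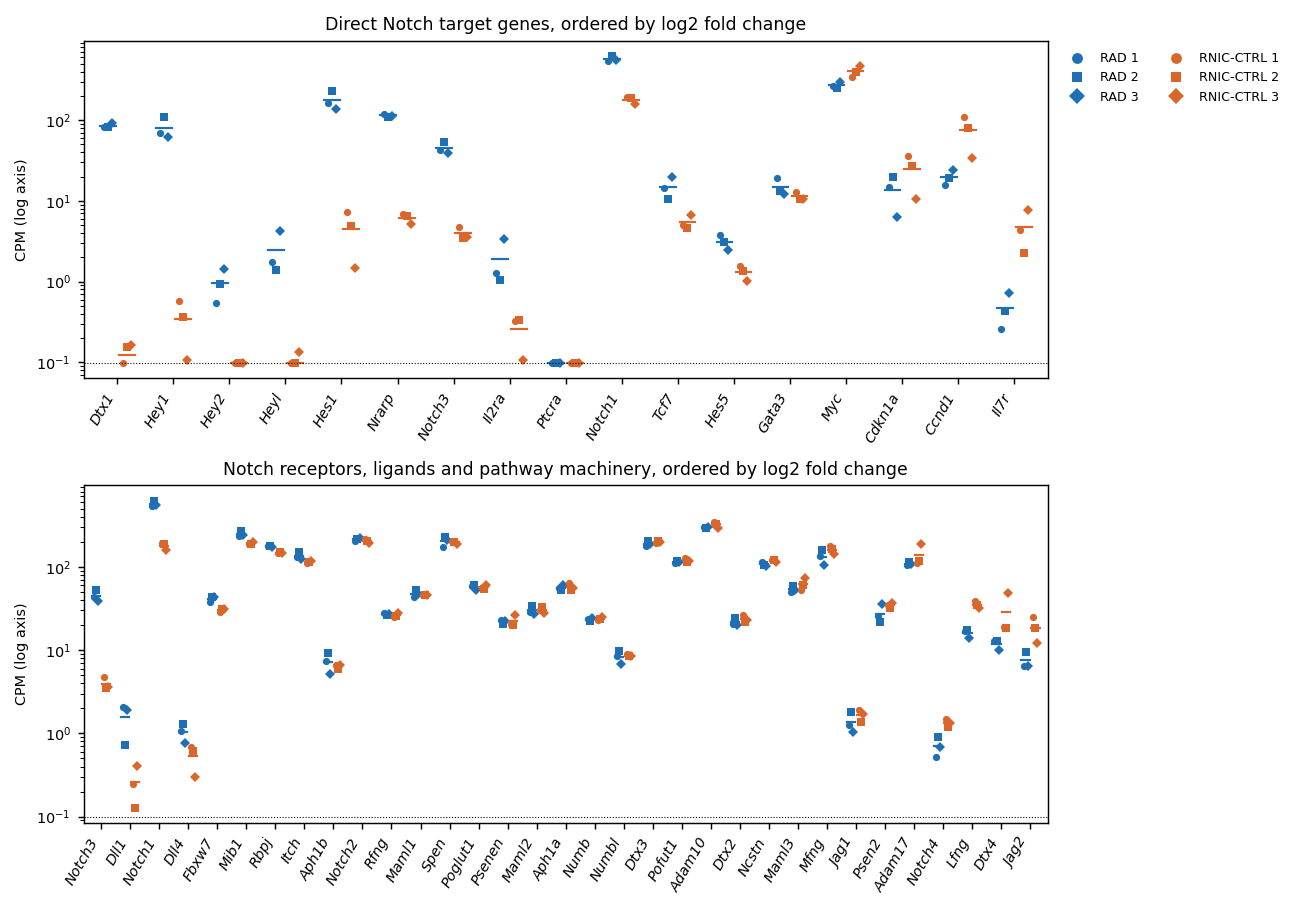
CPM on a log axis of the 17 direct Notch targets (top) and 33 of the 34 genes of the Notch machinery (bottom) in each library, in blue for RAD and orange for RNIC-CTRL; lines are group means, symbols give the replicate, and values under 0.0985 CPM (dotted line) are drawn at it. From Dtx1 to Notch3 in the top panel the groups lie far apart, whereas most genes of the machinery overlap.

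RBPJ binds the letters GTGGGAA. The promoter of Hey2 is shown because it is, of the targets that fell and have an entry, the 1 with these letters on either strand, within 250 bases before to 50 bases after the start in RefSeq's GRCm38.p6 table. Capitals mark the match, which is on the other strand and begins 207 bases before the start of this minus strand gene, at chr10:30842959-30843015.
Hey2: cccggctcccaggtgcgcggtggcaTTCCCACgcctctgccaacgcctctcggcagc
The letters stood in 2 of 14 windows (14.3%) of the 12 targets with an entry and in 6.38% of 32851 windows of all promoters. They were in 8.76% of 525 windows of genes that fell at least 2-fold, 5.41% of 924 windows of genes that rose at least 2-fold and 6.16% of 13987 windows of all tested genes. The windows of Dtx1, Nrarp, Notch1 and Notch3 did not hold these letters. Such a match is a description and not a binding site.

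Genes of T and innate lymphoid cells were among those that fell. Of 21 tested genes of the T cell receptor complex and its kinases, 7 fell (4 with RNIC-CTRL 3 alone) and 3 rose (1 without RAD 1, 2 or 3 or RNIC-CTRL 1 or 3). Trbc2, which encodes a constant domain of the beta chain, was at 146, 121 and 143 CPM in RAD and 0.489, 0.257 and 0.487 CPM in RNIC-CTRL, a log2 fold change of -8.37 ± 0.85 (adjusted p = 0.000283). Trbc1 was at 40.9, 20.6 and 41.9 CPM in RAD and 1.47, 1.18 and 1.95 CPM in RNIC-CTRL (adjusted p = 0.00319). Reads of these near-identical regions may be split between them. Lck, the kinase that starts T cell receptor signalling, was at 210.1, 216 and 182 CPM in RAD and 46.4, 34.6 and 24.2 CPM in RNIC-CTRL and fell by 2.53 ± 0.44 on the log2 scale (adjusted p = 0.00378). The related kinase Fyn and the adaptor Lcp2 fell, with log2 fold changes of -1.13 ± 0.14 and -0.92 ± 0.094. The CD3 chains Cd3e, Cd3g and Cd3d were under 0.2 CPM in all 6 libraries, which is at or near the floor. Cd4, a co-receptor also found on progenitors, rose from 1.21, 1.52 and 0.770 CPM to 3.8, 4.32 and 4.33 CPM (adjusted p = 0.000988). The whole set of T cell markers summed to 360 to 401 CPM in RAD and 27.7 to 49.6 CPM in RNIC-CTRL, and the part of T cells in these values was not tested.

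Among 25 regulators of the T lineage 6 fell and 2 rose. Cd7, a surface antigen of T and natural killer cells, was at 44.3, 53.1 and 43 CPM in RAD and 1.06, 0.746 and 1.25 CPM in RNIC-CTRL (log2 fold change -5.52 ± 0.74, adjusted p = 0.00102). Ikzf2, a zinc finger factor of the Ikaros family, Bcl11a and Runx1 fell without overlap, with log2 fold changes of -1.10 ± 0.083, -0.66 ± 0.10 and -0.64 ± 0.12. Gata3, which with TCF-1 starts the T lineage, was at 19.3, 13.3 and 12 CPM in RAD and 12.9, 10.6 and 10.7 CPM in RNIC-CTRL and did not pass (adjusted p = 0.356). Bcl11b, the commitment factor, was under 1 CPM in every library. The 2 that rose were Dntt and Gfi1, which are described with the lymphoid-primed and myeloid genes.

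Gzmb was the most abundant gene in RAD of those that fell at least 2-fold. It encodes granzyme B, the death-inducing protease of cytotoxic cells, and was at 1102, 600.2 and 1324 CPM in RAD and 4.04, 3.6 and 4.22 CPM in RNIC-CTRL. All RAD libraries were more than 100 times above all RNIC-CTRL libraries, a log2 fold change of -7.99 ± 0.58 (adjusted p = 3.39e-05). Gzmc, a neighbouring granzyme gene, had no count in RNIC-CTRL and 1.04, 1.49 and 1.24 CPM in RAD, at least 12.7-fold lower when RNIC-CTRL is set at 3 counts per library. The perforin gene Prf1 was at 4.09, 1.49 and 6.39 CPM in RAD and 0.380, 0.0514 and 0.0541 CPM in RNIC-CTRL (adjusted p = 0.00523), and its log2 fold change of -4.61 ± 0.90 ranged from -6.17 to -4.10 with 1 library left out at a time, moved most by RNIC-CTRL 1. In all 7 of 23 granzyme and innate lymphoid genes fell (4 with RNIC-CTRL 3 alone) and 4 rose. Among the risers were Zbtb16, the PLZF factor of innate-like cells, Klrb1c and Nfil3, the last with a log2 fold change of 1.66 ± 0.17. Zbtb16 was at 0.836, 0.231 and 0.420 CPM in RAD and 18, 16.7 and 26.8 CPM in RNIC-CTRL, a log2 fold change of 5.35 ± 0.47 (adjusted p = 5.77e-05). Klrb1c, the NK1.1 antigen, was at 0.606, 1.19 and 1.07 CPM in RAD and 9.64, 9.49 and 17.9 CPM in RNIC-CTRL (log2 fold change 3.69 ± 0.55, adjusted p = 0.00126).

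Several genes outside these lists fell by large amounts. Scin, which encodes the actin-severing protein scinderin, was at 552, 429.7 and 575 CPM in RAD and 8.39, 7.87 and 6.95 CPM in RNIC-CTRL, and with a log2 fold change of -6.07 ± 0.20 it had the smallest p of the named genes (adjusted p = 9.61e-08). Atp8a2, a phospholipid flippase, was at 99.5, 94.2 and 143 CPM in RAD and 1.17, 2.7 and 2.57 CPM in RNIC-CTRL (log2 fold change -5.71 ± 0.31, adjusted p = 3.07e-06). Slc35d3, of the nucleotide sugar transporter family, was at 340.4, 296 and 246 CPM in RAD and 6.19, 4.86 and 9.01 CPM in RNIC-CTRL (log2 fold change -5.46 ± 0.30). Every RAD library was over 10 times above every RNIC-CTRL library in these 3 genes. Itgb6, an integrin beta chain, and Robo1, a receptor for Slit guidance proteins, had log2 fold changes of -6.76 ± 0.38 and -5.84 ± 0.42, and the Src-related kinase Frk and Tcte2 of -5.79 ± 0.57 and -6.28 ± 0.55. St8sia6, a sialyltransferase, was at 168, 136 and 174 CPM in RAD and 0.896, 0.874 and 4.11 CPM in RNIC-CTRL, where RNIC-CTRL 3 stood above the other libraries of its group, and its log2 fold change of -6.34 ± 0.61 ranged from -7.49 to -6.0 with 1 library left out at a time, moved most by RNIC-CTRL 3. Adamtsl1, a secreted matrix protein, had 1 count in RNIC-CTRL against 5.39, 3.6 and 6.61 CPM in RAD, 605-fold (95% exact binomial interval 108 to 24000, counting error only) lower, with a fitted log2 value that ranged from -10.64 to -8.28 with 1 library left out at a time, moved most by RNIC-CTRL 1.

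The most abundant genes that fell at least 2-fold were receptors and signalling regulators. Pdgfrb, a receptor tyrosine kinase for platelet-derived growth factor, was at 919, 1022 and 889 CPM in RAD and 83.4, 103 and 86.7 CPM in RNIC-CTRL. It fell by 3.37 ± 0.21 on the log2 scale (adjusted p = 6.41e-06). Of the stromal markers Col3a1, Pdgfra and Lepr stayed under the filter on low counts, and the stromal and endothelial set summed to 8.73 to 10.6 CPM in RAD and 8.36 to 18.4 CPM in RNIC-CTRL. Deptor, an inhibitor of the growth kinase mTOR, was at 564, 651 and 575 CPM in RAD and 45.3, 53.6 and 46.1 CPM in RNIC-CTRL and fell by 3.62 ± 0.14 on the log2 scale (adjusted p = 1.72e-07). Itgal, the alpha chain of the leukocyte integrin LFA-1, was at 605, 695 and 583 CPM in RAD and 167, 200 and 194 CPM in RNIC-CTRL (log2 fold change -1.75 ± 0.12). Tsc22d1, a leucine zipper factor, Serpina3g, a protease inhibitor, and Shisa5 fell, with log2 fold changes of -1.72 ± 0.20, -1.62 ± 0.27 and -1.28 ± 0.20. Atp1b3, a subunit of the sodium pump, Slc22a3, an organic cation transporter, Cdv3 and Samhd1, which degrades DNA precursors, fell, with log2 fold changes of -1.30 ± 0.11, -1.13 ± 0.20, -1.06 ± 0.15 and -1.02 ± 0.18. Serpina3g and Samhd1 did not pass with RNIC-CTRL 3 alone (adjusted p = 0.0558 and 0.0847).

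MHC class I and antigen processing genes fell in part and by small amounts. Of 22 tested 12 fell (4 without RNIC-CTRL 3, 5 without RAD 3 and 6 without RAD 1 or RNIC-CTRL 1) and none rose, against 9.75% and 10.6% of all genes, and the median log2 fold change was -0.485. Only 3 of the 12 kept the call whichever library was left out, and none passed with RNIC-CTRL 3 alone. Those 3 were Nlrc5, the transactivator of class I genes, Tapbpl, a peptide editor, and the class I gene H2-Q6. Nlrc5 was at 373, 297 and 431 CPM in RAD and 184, 200.4 and 156 CPM in RNIC-CTRL and fell by 1.03 ± 0.20 on the log2 scale (adjusted p = 0.006, and 0.0531 with RNIC-CTRL 3 alone). H2-Q6 was at 915, 727 and 962 CPM in RAD and 465, 450.3 and 390.3 CPM in RNIC-CTRL (log2 fold change -1.0 ± 0.21, adjusted p = 0.00767), although reads may be shared among the H2-Q genes. B2m, the shared light chain, was at 2368, 2094 and 2559 CPM in RAD and 1786, 1909 and 1790 CPM in RNIC-CTRL and also fell (adjusted p = 0.0196, not past the threshold without RAD 3 or without RNIC-CTRL 1 or 3, at an adjusted p of up to 0.063). The classical genes H2-K1 and H2-D1 did not pass, at 2177, 1920 and 2226 CPM in RAD and 1913, 1963 and 1753 CPM in RNIC-CTRL for the first and log2 fold changes of -0.17 ± 0.14 and -0.16 ± 0.10. RAD 2 was the lowest library of its group in 19 of the 22 genes and RAD 3 the highest in 18.

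The class II genes changed more, with the same order of RAD libraries. H2-Aa was at 222, 94 and 269 CPM in RAD and 23.6, 17.2 and 29.8 CPM in RNIC-CTRL, where RAD 2 was the lowest of its group and above every RNIC-CTRL library. Its log2 fold change was -3.05 ± 0.52 (adjusted p = 0.00365). H2-Eb1, H2-Ab1 and Cd74, the invariant chain that guides class II molecules, fell with log2 fold changes of -3.02 ± 0.55, -2.06 ± 0.38 and -3.35 ± 0.62. Their transactivator Ciita was at 30.1, 11.6 and 43.8 CPM in RAD and 3.83, 3.39 and 4.87 CPM in RNIC-CTRL (adjusted p = 0.00882). Of the 20 genes tested on the dendritic cell and class II list these 5 fell, and none of the 5 passed with RNIC-CTRL 3 alone. The 2 that rose were Flt3 (log2 fold change 3.32 ± 0.32) and Cd86, a co-stimulatory ligand, at 2.05, 2.84 and 2.05 CPM in RAD and 7.76, 6.66 and 4.82 CPM in RNIC-CTRL (log2 fold change 1.47 ± 0.28, adjusted p = 0.00472; 0.148 with RNIC-CTRL 3 alone). Clec9a, Xcr1 and Siglech, markers of dendritic cells on the list, were at 1.68 CPM or less in all 6 libraries.

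Of 36 interferon genes 11 fell and 7 rose, and 8 fell and 2 rose with RNIC-CTRL 3 alone. The number that rose was 3 without RNIC-CTRL 2 and 4 without RAD 1 or RNIC-CTRL 1. The share called in either direction was 50%, against 20.4% of all genes. The guanylate-binding protein gene Gbp2 was at 265, 108 and 540.5 CPM in RAD and 53.7, 59 and 50.5 CPM in RNIC-CTRL (log2 fold change -2.48 ± 0.49, adjusted p = 0.00752). The GTPase gene Igtp was at 191, 79.7 and 332 CPM in RAD and 47.2, 46.4 and 43.6 CPM in RNIC-CTRL (log2 fold change -2.13 ± 0.42, adjusted p = 0.00702). RAD 2 was the lowest and RAD 3 the highest library of RAD for both genes. Both belong to the genes that interferon gamma induces most. Irf1 was at 267, 205 and 280 CPM in RAD and 116, 114 and 104 CPM in RNIC-CTRL (log2 fold change -1.17 ± 0.17, adjusted p = 0.00112). Irgm1, Zbp1, a sensor of nucleic acids, and Isg15, a ubiquitin-like modifier, had log2 fold changes of -1.34 ± 0.25, -2.41 ± 0.48 and -1.63 ± 0.30. The value of Gbp2 ranged from -2.89 to -1.79 with 1 library left out at a time, moved most by RAD 3. That of Zbp1 ranged from -2.84 to -1.71 with 1 library left out at a time, moved most by RAD 3. The chemokine genes Cxcl9 and Cxcl10, induced by the same cytokine, were at 8.85, 2.81 and 7.4 CPM and 23.4, 7.77 and 32.9 CPM in RAD and at 0.163, 0.257 and 0.595 CPM and 3.5, 1.7 and 0.595 CPM in RNIC-CTRL, where no library reached RAD. Their log2 fold changes were -4.22 ± 0.65 and -3.47 ± 0.76 (adjusted p = 0.00151 and 0.0111). The value of Cxcl9 ranged from -4.90 to -3.90 with 1 library left out at a time, moved most by RNIC-CTRL 3. That of Cxcl10 ranged from -4.22 to -3.02 with 1 library left out at a time, moved most by RNIC-CTRL 1.

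Antiviral genes and receptor chains were among the 7 that rose. The antiviral genes Rsad2, Mx1 and Mx2 rose, from 7.96, 6.25 and 6.37 CPM to 15, 18.5 and 11.6 CPM for Rsad2 (adjusted p = 0.0115) and from 5.25, 5.09 and 7.28 CPM to 13.5, 14.6 and 9.01 CPM for Mx1 (adjusted p = 0.0137, not past the threshold without RAD 1 or 2 or without RNIC-CTRL 1 or 2, at an adjusted p of up to 0.0578). Mx2 had a log2 fold change of 0.84 ± 0.24 and was not past the threshold without RAD 1, 2 or 3 or without RNIC-CTRL 1 or 2, at an adjusted p of up to 0.121. Receptor chains rose as well, with Ifngr2 at 13.4, 12.9 and 13.3 CPM in RAD and 31.2, 32.2 and 28.6 CPM in RNIC-CTRL, a log2 fold change of 1.22 ± 0.09 (adjusted p = 1.49e-05). Ifit1, Ifit2 and Oas1a, classical targets of type I interferon, did not pass, with log2 fold changes of -0.28 ± 0.20, 0.13 ± 0.10 and -0.03 ± 0.12. Across the 36 genes RAD 2 was the lowest of its group in 26 and RNIC-CTRL 3 the lowest of its group in 28. Mx1 is the gene whose promoter drives the Cre of the mice labelled NICD_TCFWT.

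Promoter stretches of interferon genes are shown because members with the same element moved in both directions. The interferon-stimulated response element was searched on both strands as GAAA, any 2 bases and GAAA again, and capitals mark each match. The Isg15, Gbp2, Irgm1 and Igtp stretches come from genes that fell, the Rsad2 stretch from a gene that rose, all from RefSeq's GRCm38.p6 table.
Isg15 (minus strand, chr4:156200850-156200921): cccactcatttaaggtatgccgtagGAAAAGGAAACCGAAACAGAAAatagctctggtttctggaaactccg
Gbp2 (plus strand, chr3:142620579-142620638): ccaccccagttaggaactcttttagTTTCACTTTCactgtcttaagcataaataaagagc
Irgm1 (minus strand, chr11:48871421-48871475): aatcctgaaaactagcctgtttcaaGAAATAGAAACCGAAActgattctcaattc
Igtp (plus strand, chr11:58199497-58199555): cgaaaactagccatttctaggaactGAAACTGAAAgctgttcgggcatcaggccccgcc
Rsad2 (minus strand, chr12:26456538-26456597): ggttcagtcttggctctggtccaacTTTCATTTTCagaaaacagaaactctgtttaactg
In Isg15 3 overlapping matches begin 78, 72 and 66 bases before the start, and in Irgm1 2 overlapping ones at 30 and 24. In Gbp2 the match begins 59, in Igtp 34 and in Rsad2 120 bases before it. The element stood in 17 of 36 windows (47.2%) of the 30 interferon genes with an entry, against 3.44% of all promoter windows. Of the 17 genes that hold it 7 fell, 1 rose and 9 did not pass. Of the 13 without it 2 fell, 4 rose and 7 did not pass. It was in 8.38% of the windows of genes that fell at least 2-fold, 2.49% of those that rose at least 2-fold and 3.29% of all tested genes.

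The gamma-activated site, an element of genes that interferon gamma induces, was searched as TTCNNNGAA on both strands. Irf1 is shown as the gene of this list best known for it, with the match in capitals.
Irf1 (plus strand, chr11:53769899-53769957): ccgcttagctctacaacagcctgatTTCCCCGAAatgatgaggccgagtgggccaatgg
It begins 90 bases before the start. The letters stood in 9 of 36 windows (25%) of the 30 interferon genes with an entry. Of the 9 genes that hold them 2 fell, 2 rose and 5 did not pass. Of the 21 without them 7 fell, 3 rose and 11 did not pass. They were in 9.71% of the windows of genes that fell at least 2-fold, 5.41% of those that rose at least 2-fold, 6.96% of all tested genes and 8.3% of all promoters.

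**Figure D3:**
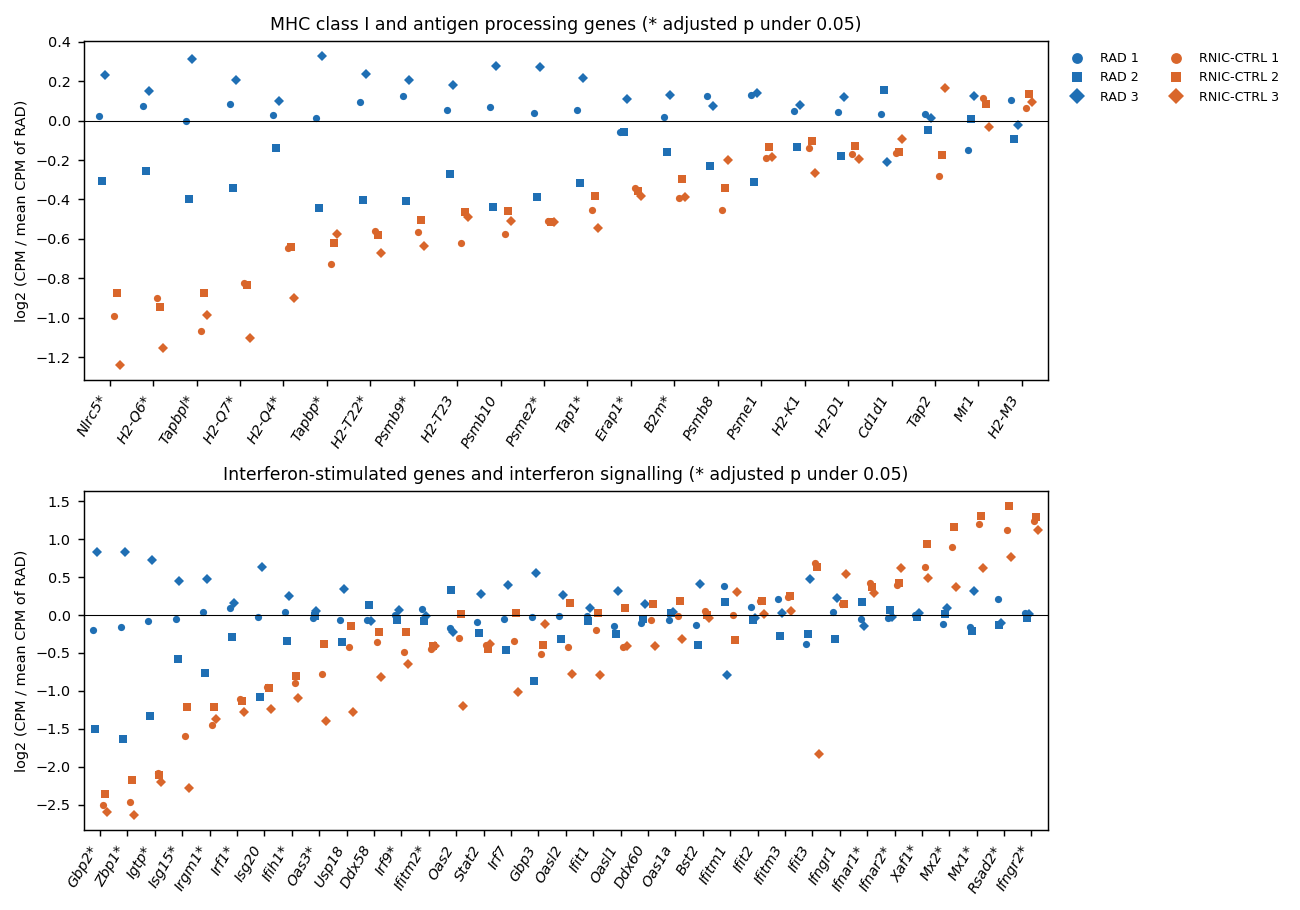
Log2 of the CPM over the mean CPM of RAD for each library, in blue for RAD and orange for RNIC-CTRL, over 22 MHC class I genes (top) and 35 of the 36 interferon genes (bottom), ordered by fold change; stars mark adjusted p under 0.05, and values under 0.0985 CPM are set to it. RAD 2 (blue squares) is the lowest of its group in 19 and 25 of the genes drawn, and RNIC-CTRL 3 (orange diamonds) the lowest of its group in 27 of the interferon genes drawn.

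Of 24 JAK, STAT and SOCS genes tested 7 fell and none rose, a share of 29.2% against 20.4% of all genes. The number was 4 without RNIC-CTRL 1, 4 of the 7 passed whichever library was left out and 2 with RNIC-CTRL 3 alone, and the median of the list was -0.119. The kinase gene Jak1 was at 471, 524 and 494 CPM in RAD and 351, 356 and 358 CPM in RNIC-CTRL (log2 fold change -0.48 ± 0.075, adjusted p = 0.0015) and Jak2 at 184, 179.6 and 206 CPM in RAD and 130.4, 127 and 128 CPM in RNIC-CTRL (log2 fold change -0.57 ± 0.08, adjusted p = 0.000946). Stat3 fell by 0.48 ± 0.094 on the log2 scale. Jak3 and Tyk2 did not pass, and the feedback inhibitor genes Socs1, Socs2 and Socs3 did not either, with Socs3 at 6.86, 23 and 4.29 CPM in RAD and 25.6, 21.6 and 17.6 CPM in RNIC-CTRL.

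Receptors for myeloid and lymphoid cytokines were among the genes that rose. Of 40 receptor genes 12 rose (6 with RNIC-CTRL 3 alone) and 7 fell. Flt3 (ENSMUSG00000042817, chromosome 5, 147330741 to 147400489), the receptor of multipotent and lymphoid-primed progenitors, was at 48.6, 74 and 42.3 CPM in RAD and 569.6, 559.5 and 515 CPM in RNIC-CTRL. Every RNIC-CTRL library was over 6 times the highest RAD library, a log2 fold change of 3.32 ± 0.32 (adjusted p = 0.000137). Il6ra, the interleukin 6 receptor, was at 1.47, 1.69 and 0.840 CPM in RAD and 29, 38.1 and 56.4 CPM in RNIC-CTRL (log2 fold change 4.96 ± 0.46, adjusted p = 0.000102). Csf3r, the receptor for G-CSF, was at 40.8, 81.9 and 29.4 CPM in RAD and 229.5, 279.8 and 317 CPM in RNIC-CTRL (log2 fold change 2.44 ± 0.39, adjusted p = 0.00244). Il21r rose by 1.84 ± 0.20 and Il10rb by 1.32 ± 0.11 on the log2 scale. Kit, the gate antigen and stem cell factor receptor, was at 764, 784 and 818 CPM in RAD and 762, 847 and 751 CPM in RNIC-CTRL, and its log2 fold change was -0.0 ± 0.12 (adjusted p = 0.989).

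Myeloid fate factors rose in part. Of 25 factors and growth factor receptors 10 rose, 7 whichever library was left out and 8 with RNIC-CTRL 3 alone, 3 fell, and the median was 1.03. Cebpa (ENSMUSG00000034957, chromosome 7, 35119293 to 35121928), the factor without which granulocytes do not form, was at 0.144, 0 and 0.0467 CPM in RAD and 28.5, 41.3 and 82.7 CPM in RNIC-CTRL. RAD held 7 counts in all, and RNIC-CTRL 3 was the highest library. Its log2 fold change of 9.54 ± 0.95 (adjusted p = 0.000223) ranged from 9.0 to 10.70 with 1 library left out at a time, moved most by RAD 1. Irf8, which directs monocyte and dendritic cell fate, was at 7.79, 4.17 and 9.62 CPM in RAD and 50.2, 62.7 and 164 CPM in RNIC-CTRL (log2 fold change 3.67 ± 0.74, adjusted p = 0.00843). The value of Irf8 ranged from 2.96 to 3.96 with 1 library left out at a time, moved most by RNIC-CTRL 3. Gfi1, a repressor that favours granulocytes, was at 26.4, 31.1 and 18.4 CPM in RAD and 55.3, 51.7 and 56.8 CPM in RNIC-CTRL (adjusted p = 0.00563). Spi1, which encodes PU.1, rose by 0.55 ± 0.12 on the log2 scale. The 3 that fell were Maf, at 9.14, 11.9 and 8.26 CPM in RAD and 1.98, 3.78 and 2.76 CPM in RNIC-CTRL, Runx1, and Cd33, at 28.6, 38.6 and 24.9 CPM in RAD and 16.4, 14.9 and 15.1 CPM in RNIC-CTRL.

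Not all of the list followed. Csf1r, the macrophage growth factor receptor, was at 66, 94 and 42.9 CPM in RAD and 15.8, 20.2 and 68.9 CPM in RNIC-CTRL, with RNIC-CTRL 3 inside the range of RAD and the other libraries of its group below it (adjusted p = 0.33). The immediate-early factor gene Nr4a1 was at 53, 152 and 39.4 CPM in RAD and 265, 225 and 7.85 CPM in RNIC-CTRL, so that RNIC-CTRL 3 was below RAD and the other libraries above it (adjusted p = 0.686). On the list of RAS-MAPK feedback and immediate-early genes RNIC-CTRL 3 was the lowest of its group in 24 of 27 genes at 1 CPM or more. Of that list Dusp4, a phosphatase of ERK, rose, at 0.692, 0.430 and 0.724 CPM in RAD and 33.1, 19.9 and 8.93 CPM in RNIC-CTRL (log2 fold change 5.05 ± 0.58, adjusted p = 0.000318), and Nf1, a brake on RAS, fell by 1.03 ± 0.11.

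Granule proteins of early granulocytes rose, whereas those named here of mature neutrophils were low in both groups and did not pass. Mpo (ENSMUSG00000009350, chromosome 11, 87793581 to 87804413), myeloperoxidase, the most abundant gene among the large increases, was at 35.4, 18.7 and 16.4 CPM in RAD and 1253, 2163 and 4676 CPM in RNIC-CTRL. The groups did not overlap, and RNIC-CTRL 3 was the highest library. Its log2 fold change of 6.84 ± 0.92 (adjusted p = 0.00123) ranged from 6.18 to 7.25 with 1 library left out at a time, moved most by RNIC-CTRL 3. The granule proteases Ctsg, Prtn3 and Elane followed. Ctsg was at 18.1, 9.29 and 8.75 CPM in RAD and 103, 198 and 367 CPM in RNIC-CTRL (log2 fold change 4.21 ± 0.79, adjusted p = 0.00639). Prtn3 was at 6.08, 12.1 and 3.78 CPM in RAD and 75.9, 126 and 476 CPM in RNIC-CTRL, and its value of 4.96 ± 0.97 (adjusted p = 0.00787) ranged from 3.79 to 5.52 with 1 library left out at a time, moved most by RNIC-CTRL 3. Elane was at 0.519, 0.198 and 0.584 CPM in RAD and 8.93, 12.9 and 307 CPM in RNIC-CTRL, where RNIC-CTRL 3 was over 20 times the other libraries of its group. Its log2 fold change of 7.92 ± 1.99 (adjusted p = 0.023) ranged from 4.59 to 8.46 with 1 library left out at a time, moved most by RNIC-CTRL 3, and it was not past the threshold without RAD 1, 2 or 3 or without RNIC-CTRL 3, at an adjusted p of up to 0.0794. Hp and Ms4a3 showed the same order, with Hp at 0, 0.0661 and 0.187 CPM in RAD and 2.61, 3.68 and 41.5 CPM in RNIC-CTRL. Ms4a3 was at 2.88, 1.92 and 1.89 CPM in RAD and 8.9, 12 and 93 CPM in RNIC-CTRL. The log2 fold change of Hp was 7.40 ± 1.97, from 5.06 to 8.85 with 1 library left out at a time, moved most by RNIC-CTRL 3. That of Ms4a3 was 4.09 ± 1.25, from 2.23 to 4.55 with 1 library left out at a time, moved most by RNIC-CTRL 3. Hp was not past the threshold without RAD 1, 2 or 3 or without RNIC-CTRL 3, at an adjusted p of up to 0.0928. Ms4a3 was not past the threshold without RAD 1, 2 or 3 or without RNIC-CTRL 2 or 3, at an adjusted p of up to 0.175. The set of neutrophil and monocyte markers, of which only Ccr2 passed, summed to 179 to 293 CPM in RAD and 617 to 974 CPM in RNIC-CTRL. The part of such cells was not tested. These 6 were all the members that rose, 6 of 21, and 5 rose with RNIC-CTRL 3 alone. The number was 3 without RAD 1, 2 or 3 or RNIC-CTRL 3. RNIC-CTRL 3 was the highest of its group in 12 of the 13 genes at 1 CPM or more. Proteins of later granules were low, with S100a8 at 0.231, 0.0331 and 2.43 CPM in RAD and 0.190, 0.180 and 2.6 CPM in RNIC-CTRL. Camp was at 0.231, 0 and 0.467 CPM in RAD and 0.0543, 0.0257 and 1.16 CPM in RNIC-CTRL, and neither passed.

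**Figure D4:**
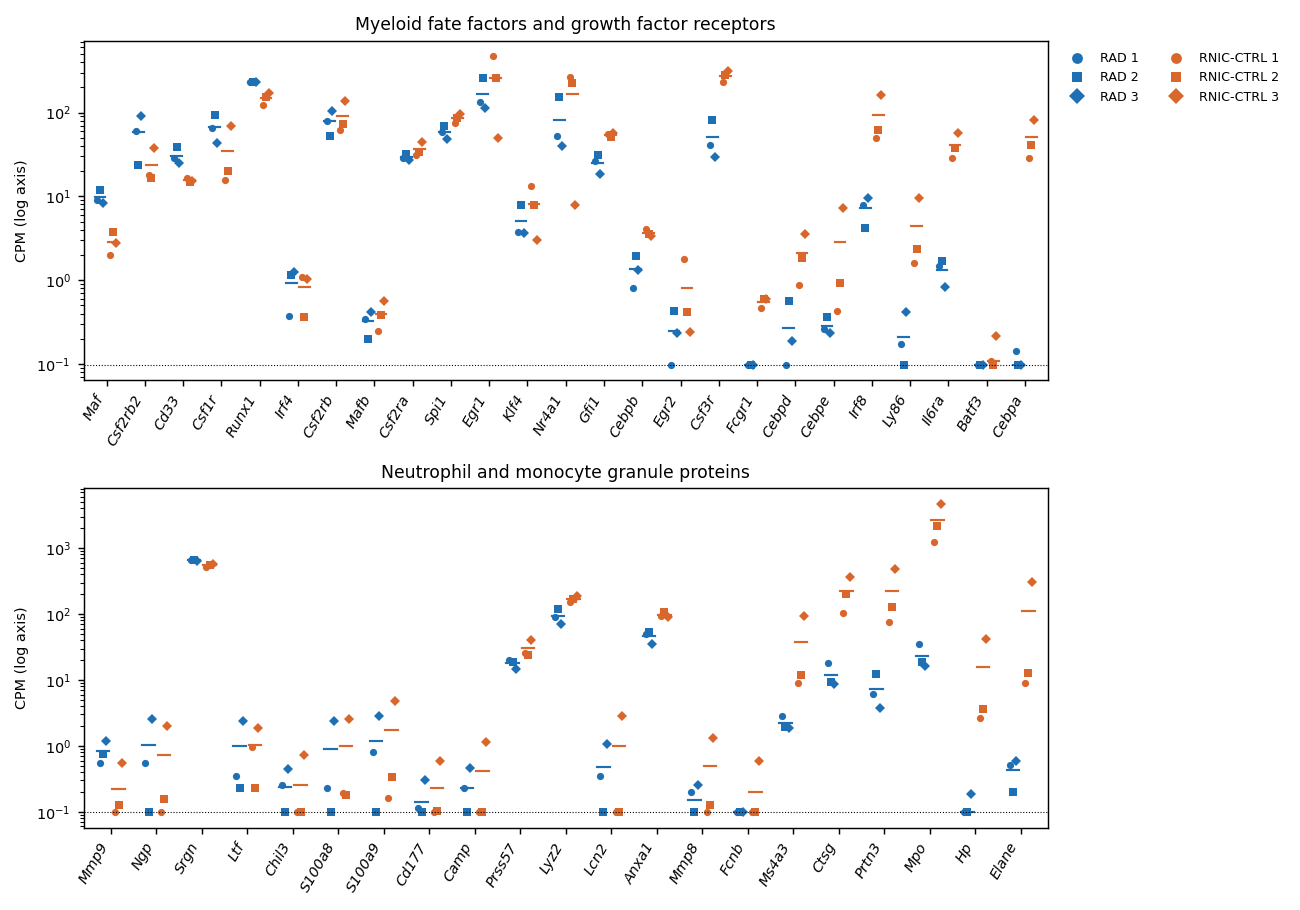
CPM on a log axis of 25 myeloid factors and receptors (top) and 21 granule protein genes (bottom) in each library, in blue for RAD and orange for RNIC-CTRL, ordered by fold change; lines are group means, and values under 0.0985 CPM (dotted line) are drawn at it. Mpo, Elane, Prtn3, Ctsg and Ms4a3 lie apart, highest in RNIC-CTRL 3, whereas S100a8, Camp and Ngp stay low in both groups.

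Of 26 chemokine and chemokine receptor genes 8 rose (5 without RAD 1) and 2 fell. With RNIC-CTRL 3 alone 7 rose. Ccl9, which attracts myeloid cells, was at 0.461, 0.760 and 1.31 CPM in RAD and 158, 202 and 356 CPM in RNIC-CTRL, over 100 times RAD in every library (log2 fold change 8.10 ± 0.65, adjusted p = 7.09e-05). Ccr2, the receptor that lets monocytes leave the marrow, was at 15.6, 9.52 and 10.9 CPM in RAD and 424, 448 and 648 CPM in RNIC-CTRL (log2 fold change 5.40 ± 0.83, adjusted p = 0.0025). Ccl3 was at 1.76, 1.65 and 1.96 CPM in RAD and 34.6, 55.5 and 33.3 CPM in RNIC-CTRL (log2 fold change 4.52 ± 0.46).

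Other genes with the largest increases belong to no single group. Zfp990, a zinc finger gene, was at 0.490, 0.0992 and 0.513 CPM in RAD and 101, 91.4 and 103 CPM in RNIC-CTRL (log2 fold change 7.99 ± 0.46, adjusted p = 6.41e-06), with the RNIC-CTRL libraries close together. It belongs to a family of similar genes, so that its reads are uncertain. Slc16a11, of the monocarboxylate transporter family, was at 0.0288, 0.132 and 0.0700 CPM in RAD and 47, 45 and 18.2 CPM in RNIC-CTRL (log2 fold change 8.88 ± 0.94, adjusted p = 0.000273). Kcng1, a potassium channel subunit, was at 0.173, 0.198 and 0.210 CPM in RAD and 20.9, 30 and 17.5 CPM in RNIC-CTRL (log2 fold change 6.85 ± 0.49). Hmga2, a chromatin protein of fetal stem cells, was at 0.952, 0.628 and 0.817 CPM in RAD and 51.7, 60.1 and 19.8 CPM in RNIC-CTRL (log2 fold change 5.77 ± 0.64, adjusted p = 0.000329). RNIC-CTRL 3 was the lowest of its group for Slc16a11, Kcng1 and Hmga2. It was the highest for Slc16a12, at 0.115, 0.0331 and 0.0934 CPM in RAD and 3.8, 4.78 and 15 CPM in RNIC-CTRL. Tifab was at 0.577, 0.364 and 0.444 CPM in RAD and 6.89, 10.2 and 43.1 CPM in RNIC-CTRL, and Wfdc17 was at 0.115, 0.595 and 0.140 CPM in RAD and 5.67, 10.2 and 23.2 CPM in RNIC-CTRL, again highest in RNIC-CTRL 3. Their log2 fold changes of 6.52 ± 0.83, 5.43 ± 1.10 and 5.55 ± 0.74 moved by over 1.5 times without 1 library. That of Tifab ranged from 4.19 to 5.83 with 1 library left out at a time, moved most by RNIC-CTRL 3. Tifab did not pass with limma-voom (adjusted p = 0.23) or with replicates 1 and 2 only (0.0517), within a range of 3.35e-08 to 0.23 over the alternatives beyond leaving out 1 library. That of Wfdc17 ranged from 4.84 to 6.62 with 1 library left out at a time, moved most by RAD 2. That of Slc16a12 ranged from 5.65 to 6.84 with 1 library left out at a time, moved most by RNIC-CTRL 3. Scube3, a secreted protein, rose by 5.49 ± 0.41 and St6galnac2, a sialyltransferase, by 7.26 ± 0.61 on the log2 scale.

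The most abundant genes that rose at least 2-fold were Mpo and H2afy, the histone variant macroH2A1. It was at 840.3, 854 and 724 CPM in RAD and 2013, 2221 and 2111 CPM in RNIC-CTRL (log2 fold change 1.39 ± 0.12, adjusted p = 4.62e-05), and both groups were tight. Adgrl4, an adhesion receptor known from endothelium, was at 106, 246 and 96.7 CPM in RAD and 1123, 1116 and 915 CPM in RNIC-CTRL (log2 fold change 2.82 ± 0.46, adjusted p = 0.00283), with RAD 2 over 2 times the other RAD libraries. Lmo2, a bridging factor of blood stem cells, was at 254, 266 and 239 CPM in RAD and 779.5, 807 and 702 CPM in RNIC-CTRL (log2 fold change 1.59 ± 0.26, adjusted p = 0.0023). Igfbp4, a binding protein of insulin-like growth factors, rose by 1.63 ± 0.17, Emb by 1.87 ± 0.22, Plppr3 by 2.31 ± 0.31 and Anks1 by 1.03 ± 0.15 on the log2 scale. Rps3a3 was at 19.2, 18.8 and 18.9 CPM in RAD and 389, 314 and 445 CPM in RNIC-CTRL, but as a near copy of a ribosomal protein gene it may hold reads of another locus. Adgrl4 and Lmo2 did not pass with RNIC-CTRL 3 alone (adjusted p = 0.0522 and 0.053).

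Stem cell regulators rose in part. Of 29 tested 10 rose and 2 fell, with 3 and 1 called with RNIC-CTRL 3 alone. Hlf, a factor of long-term stem cells, was at 80.2, 129.7 and 73.2 CPM in RAD and 427, 395 and 311 CPM in RNIC-CTRL (log2 fold change 2.0 ± 0.41, adjusted p = 0.00811; 0.127 with RNIC-CTRL 3 alone). Mecom was at 23.1, 28.9 and 20.5 CPM in RAD and 89.3, 77.8 and 66.7 CPM in RNIC-CTRL (adjusted p = 0.0137, not past the threshold without RAD 3, at an adjusted p of up to 0.0535). Vwf was at 10.7, 8.86 and 11.8 CPM in RAD and 63.1, 35.9 and 75.5 CPM in RNIC-CTRL (log2 fold change 2.47 ± 0.43, adjusted p = 0.00367). Fgd5, a gene used to mark stem cells, rose by 2.64 ± 0.53 on the log2 scale. The 2 that fell were Mycn, a Myc relative, at 223, 224 and 199.8 CPM in RAD and 52.5, 41.9 and 33.4 CPM in RNIC-CTRL (log2 fold change -2.34 ± 0.22, adjusted p = 0.000102), and Esam, at 109, 131 and 82.8 CPM in RAD and 54.7, 39.8 and 40.9 CPM in RNIC-CTRL (adjusted p = 0.0226, not past the threshold without RAD 1 or 2 or without RNIC-CTRL 2 or 3, at an adjusted p of up to 0.0766). Procr, Gata2, Meis1 and Erg did not pass, with log2 fold changes of 0.47 ± 0.52, -0.60 ± 0.30, 0.46 ± 0.25 and 0.22 ± 0.21.

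The antigens of the gate and of progenitor subsets changed in part. Of 21 tested 6 rose and 3 fell, and 4 of the risers and 1 of the fallers kept the call whichever library was left out. Ly6a, which encodes Sca1, was at 120.3, 101 and 148 CPM in RAD and 87.9, 79.4 and 51.8 CPM in RNIC-CTRL. The groups did not overlap, but the log2 fold change of -0.75 ± 0.24 missed the threshold (adjusted p = 0.0511). It passed with RLE size factors, at least 1 CPM in 3 libraries, DESeq2, limma-voom, the sample sheet term and the Y-linked covariate, within a range of 0.00807 to 0.0888 over the alternatives beyond leaving out 1 library. Cd34 was at 617, 824 and 555 CPM in RAD and 1063, 1283 and 1106 CPM in RNIC-CTRL and rose (adjusted p = 0.0154, not past the threshold without RAD 1 or 3 or without RNIC-CTRL 2, at an adjusted p of up to 0.0558). Cd48, an antigen of multipotent progenitors, was at 298, 361 and 244 CPM in RAD and 170, 220.5 and 166 CPM in RNIC-CTRL and fell (adjusted p = 0.0149, not past the threshold without RNIC-CTRL 1 or 3, at an adjusted p of up to 0.0585). Cd93 rose by 0.52 ± 0.12 and Cd200 by 3.13 ± 0.43, whereas Ly6e fell by 0.83 ± 0.15 on the log2 scale.

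Imprinted genes, some of which hold stem cells in quiescence, rose in part and none fell. Of 20 tested 10 rose, each at least 2-fold, 7 kept the call whichever library was left out, 5 rose with RNIC-CTRL 3 alone, and the median log2 fold change was 1.72. Grb10, an adaptor that dampens growth factor signals, was at 3.63, 1.88 and 5.83 CPM in RAD and 72.4, 41.3 and 59 CPM in RNIC-CTRL (log2 fold change 3.92 ± 0.51, adjusted p = 0.000846). Cdkn1c, the cell cycle inhibitor p57, was at 0.519, 0.198 and 0.444 CPM in RAD and 5.75, 4.4 and 4.08 CPM in RNIC-CTRL (log2 fold change 3.59 ± 0.45, adjusted p = 0.000435) and Ndn at 0.865, 0.826 and 0.327 CPM in RAD and 10.6, 6.87 and 7.3 CPM in RNIC-CTRL (log2 fold change 3.62 ± 0.64). The noncoding RNAs Meg3 and Rian, of 1 maternally expressed cluster on chromosome 12, were at or near the floor in RAD. Meg3 had 1 count in RAD and 6.73, 3.09 and 11.3 CPM in RNIC-CTRL, 753-fold (95% exact binomial interval 135 to 29800, counting error only) higher. Rian had none and 2.06, 0.900 and 4.03 CPM, at least 23.7-fold higher against 3 counts per library. Dlk1, expressed from the paternal copy of the same cluster, was at 0.0288, 0 and 0.117 CPM in RAD and 1.06, 1.36 and 1.11 CPM in RNIC-CTRL. Its log2 fold change of 4.39 ± 0.86 ranged from 3.90 to 5.98 with 1 library left out at a time, moved most by RAD 3. The fitted log2 values of Meg3 and Rian ranged from 8.63 to 11.05 with 1 library left out at a time, moved most by RAD 3, and from 8.83 to 9.86 with 1 library left out at a time, moved most by RNIC-CTRL 3. H19, Plagl1 and Peg3 were under 1 CPM in every library and did not pass.

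Hox genes rose in part. Of 21 Hox and cofactor genes 8 rose and 1 fell, and 1 rose with RNIC-CTRL 3 alone. The number that rose was 3 without RAD 1 or 3, 4 without RNIC-CTRL 1 and 5 without RNIC-CTRL 2. Hoxa9, a driver of progenitor growth, was at 56.2, 79.7 and 47.8 CPM in RAD and 138, 145 and 109.7 CPM in RNIC-CTRL (adjusted p = 0.0157, not past the threshold without RAD 1 or 3 or without RNIC-CTRL 2, at an adjusted p of up to 0.0572). Hoxa10 was at 1.56, 3.31 and 1.54 CPM in RAD and 23.3, 18.5 and 19.1 CPM in RNIC-CTRL (log2 fold change 3.25 ± 0.44, adjusted p = 0.00077). Hoxa2, with a log2 fold change of 1.10 ± 0.29, was not past the threshold without RAD 1 or 3 or without RNIC-CTRL 1, at an adjusted p of up to 0.0851. Hoxa5, at 0.65 ± 0.20, was not past the threshold without RAD 1 or 3 or without RNIC-CTRL 1 or 2, at an adjusted p of up to 0.15. Hoxb4, the best known stem cell gene of the B cluster, was at 17.3, 20.4 and 13.6 CPM in RAD and 17.3, 16.5 and 19 CPM in RNIC-CTRL (adjusted p = 0.916). Pbx3 was the gene that fell, at 20.5, 18.4 and 16.7 CPM in RAD and 10.3, 9.77 and 9.93 CPM in RNIC-CTRL (adjusted p = 0.0149, not past the threshold without RAD 1, at an adjusted p of up to 0.0529).

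Lymphoid-primed progenitor genes changed in both directions. Of 18 tested 6 rose and 4 fell (2 without RAD 2 or RNIC-CTRL 1 or 3). Among the fallers Notch1 kept the call whichever library was left out, and Il12rb1 and Ly6d did not. Dntt, which adds bases to antigen receptor joints, was at 7.41, 9.79 and 5.39 CPM in RAD and 276, 199.5 and 252 CPM in RNIC-CTRL, over 20 times higher in every RNIC-CTRL library than in any RAD library (log2 fold change 5.01 ± 0.74, adjusted p = 0.00201). Mef2c rose by 0.74 ± 0.12 on the log2 scale (adjusted p = 0.00194). Blnk, an adaptor of the B cell receptor, had 3 counts in RAD and 1.93, 2.13 and 4.28 CPM in RNIC-CTRL, 99.5-fold (95% exact binomial interval 33.7 to 485, counting error only) higher, with a fitted log2 value that ranged from 6.05 to 7.21 with 1 library left out at a time, moved most by RAD 3. Pax5 stayed under the filter, and of 18 B lineage genes 2 rose and 1 fell. The faller was the kinase gene Blk, at 10.5, 10.5 and 11.2 CPM in RAD and 0.516, 0.0257 and 1.0 CPM in RNIC-CTRL, whose log2 fold change of -4.38 ± 0.97 (adjusted p = 0.0119) ranged from -5.30 to -3.83 with 1 library left out at a time, moved most by RNIC-CTRL 3.

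Megakaryocyte and platelet genes rose in part. Of 21 tested 7 rose and 2 fell, with 2 and 1 with RNIC-CTRL 3 alone. The number that rose was 3 without RNIC-CTRL 1 or 3 and 4 without RNIC-CTRL 2, and 3 kept the call whichever library was left out. Pf4, platelet factor 4, was at 0.981, 0.628 and 0.490 CPM in RAD and 19.9, 15.8 and 32.8 CPM in RNIC-CTRL (log2 fold change 5.03 ± 0.72, adjusted p = 0.0012), and Gp9 rose by 1.85 ± 0.39. F2r, the thrombin receptor, was at 270, 194 and 265 CPM in RAD and 61.5, 56 and 64.8 CPM in RNIC-CTRL and fell by 2.0 ± 0.15 on the log2 scale (adjusted p = 1.67e-05). Itga2b, the common marker of the lineage, was at 191, 181 and 201 CPM in RAD and 108, 136 and 188 CPM in RNIC-CTRL (adjusted p = 0.182).

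Of 16 mast cell and basophil genes 2 rose and 2 fell, a share of 25% near the 20.4% of all genes. The number that rose was 1 without RAD 1 or 2 or RNIC-CTRL 3 and 4 without RAD 3, 1 with the replicate block, 5 with DESeq2 and 6 with the Y-linked covariate. Tpsb2, a mast cell tryptase, had 1 count in RAD and 30.5, 28.9 and 18.6 CPM in RNIC-CTRL, 2810-fold (95% exact binomial interval 503 to 111000, counting error only) higher. Its fitted log2 value ranged from 10.59 to 12.93 with 1 library left out at a time, moved most by RAD 3, and reads may be shared with the neighbouring tryptase gene Tpsab1. Cpa3, the mast cell carboxypeptidase, was at 239.6, 238 and 350.4 CPM in RAD and 63, 61.8 and 59.9 CPM in RNIC-CTRL and fell without overlap (adjusted p = 0.000415). Il4 was at 12.8, 10.3 and 13.1 CPM in RAD and 1.71, 1.13 and 0.541 CPM in RNIC-CTRL (log2 fold change -3.42 ± 0.66, adjusted p = 0.00534).

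Of 19 erythroid genes none passed in either direction, and 18 of the 18 at 1 CPM or more were highest in RAD 3 among RAD. Klf1, the master factor of the lineage, was at 23.6, 2.12 and 63.8 CPM in RAD and 2.99, 3.32 and 15.4 CPM in RNIC-CTRL. Car1, a carbonic anhydrase, was at 164, 14.7 and 455 CPM in RAD and 8.33, 14.3 and 98.2 CPM in RNIC-CTRL. For both genes the RAD libraries spread over more than 10 times and the groups overlapped.

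Genes of resident macrophages rose in part and none fell. Of 21 tested 10 rose, 9 whichever library was left out and 9 with RNIC-CTRL 3 alone. Apoe, a lipid carrier, was the most abundant of those named, at 12.8, 13.2 and 14.5 CPM in RAD and 33.3, 50.4 and 73.2 CPM in RNIC-CTRL (log2 fold change 1.96 ± 0.28, adjusted p = 0.0011), highest in RNIC-CTRL 3. The haem oxygenase gene Hmox1 was at 1.33, 1.35 and 1.38 CPM in RAD and 3.69, 6.27 and 6.25 CPM in RNIC-CTRL (log2 fold change 2.0 ± 0.30). Mrc1, the mannose receptor, was at 0.115, 0.198 and 0.0700 CPM in RAD and 0.679, 1.29 and 2.71 CPM in RNIC-CTRL, and its log2 fold change of 3.63 ± 0.64 ranged from 2.97 to 4.04 with 1 library left out at a time, moved most by RNIC-CTRL 3. Spic, the factor of red pulp macrophages, was at 4.44, 3.4 and 3.97 CPM in RAD and 3.31, 2.93 and 3.3 CPM in RNIC-CTRL and did not pass. RNIC-CTRL 3 was the highest of its group in 9 of the 14 genes at 1 CPM or more.

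Adhesion genes changed one by one. Of 37 tested 10 fell and 5 rose, with 3 and 3 with RNIC-CTRL 3 alone. The number that fell was 6 without RAD 1 or RNIC-CTRL 1 or 2. Itga9 fell by 2.31 ± 0.23 on the log2 scale beside Itgal and Itgb6. Cldn10, a claudin, was at 30.5, 22.6 and 29.2 CPM in RAD and 0, 0.283 and 0.352 CPM in RNIC-CTRL (log2 fold change -6.99 ± 0.89, adjusted p = 0.000702). Emcn, endomucin, was at 0.606, 0.959 and 0.700 CPM in RAD and 16.2, 16.4 and 17.6 CPM in RNIC-CTRL and rose by 4.47 ± 0.43 on the log2 scale (adjusted p = 9.73e-05). Jam2 rose by 3.99 ± 0.56 on the log2 scale. Itgb5 was at 1.1, 0.529 and 0.233 CPM in RAD and 26.2, 26.5 and 14.6 CPM in RNIC-CTRL, with a log2 fold change of 5.19 ± 0.59 that ranged from 4.76 to 5.90 with 1 library left out at a time, moved most by RAD 1. Lgals1, a galectin of the list of S100, annexin and actin-bundling genes, was at 5.97, 3.44 and 3.73 CPM in RAD and 87.9, 75.1 and 62.8 CPM in RNIC-CTRL (log2 fold change 4.10 ± 0.43, adjusted p = 0.000283), and Anxa2 rose by 1.76 ± 0.25.

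Glycolysis genes rose in part and none fell. Of 26 tested 11 rose, 5 whichever library was left out and 4 with RNIC-CTRL 3 alone (5 without RAD 1 or RNIC-CTRL 1 and 6 without RAD 3 or RNIC-CTRL 2 or 3), with a median of 0.367. Hk3, the hexokinase of myeloid cells, was at 6.2, 6.12 and 4.76 CPM in RAD and 137, 186 and 255 CPM in RNIC-CTRL (log2 fold change 5.09 ± 0.42, adjusted p = 7.08e-05) and set the top of the list. Hk2, Ldhb, a lactate dehydrogenase, Pfkp, a phosphofructokinase, and Bnip3 rose, with log2 fold changes of 0.95 ± 0.14, 1.87 ± 0.20, 1.02 ± 0.11 and 1.46 ± 0.24. The abundant enzymes Pkm, Ldha and Aldoa did not pass, with log2 fold changes of 0.26 ± 0.13, 0.23 ± 0.13 and 0.21 ± 0.093. Of 33 nuclear genes of the citric acid cycle and respiratory chain 3 rose and 1 fell, fewer than the background of 20.4% (12.1%). The faller was Tfam, the factor of mitochondrial DNA, at 112, 104 and 104 CPM in RAD and 80.7, 77.7 and 80.9 CPM in RNIC-CTRL.

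Of 40 ribosomal protein genes 16 rose and none fell. The number was 5 without RAD 2 or RNIC-CTRL 3, 6 without RAD 3 and 7 without RNIC-CTRL 1 or 2. None changed 2-fold and the median was 0.272. Of the 16, 5 kept the call whichever library was left out, and 3 passed with RNIC-CTRL 3 alone. Rplp1 was at 609.7, 533 and 643 CPM in RAD and 958, 969.5 and 969.6 CPM in RNIC-CTRL (log2 fold change 0.70 ± 0.12, adjusted p = 0.00228), and Rpl6 and Rps15 rose by 0.63 ± 0.11 and 0.48 ± 0.088. These genes have many processed copies, so that their reads are uncertain. Of 26 genes of ribosome biogenesis none passed, with log2 fold changes between -0.172 and 0.282.

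In the cholesterol list 5 of 26 fell (2 without RAD 2 or 3 or RNIC-CTRL 1, 2 or 3) and 1 rose, a share of 23.1% near the 20.4% of all genes. Cyp51, a demethylase of the sterol pathway, fell by 0.47 ± 0.10 on the log2 scale (adjusted p = 0.00869; 0.116 with RNIC-CTRL 3 alone). Among fatty acid and eicosanoid enzymes 7 of 30 fell and 3 rose, with a median of 0.0594. Fads2, a desaturase, was at 162, 169.8 and 156 CPM in RAD and 53.5, 42.2 and 59.1 CPM in RNIC-CTRL (log2 fold change -1.66 ± 0.12, adjusted p = 1.46e-05), and Alox5ap, which leukotriene synthesis needs, rose by 0.60 ± 0.092. Of 30 lysosomal genes 9 rose (5 without RAD 3 or RNIC-CTRL 2 or 3) and 3 fell. Ctsl, a cathepsin, rose by 1.17 ± 0.17, Hexa by 0.88 ± 0.14 and Gaa by 0.61 ± 0.10 on the log2 scale.

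Of 22 genes of the BCL2 family and of death receptors 4 rose and 1 fell, a share of 22.7% near the 20.4% of all genes, with a median of -0.033. Bcl2, an inhibitor of apoptosis, was at 35.9, 22.7 and 32.3 CPM in RAD and 163, 178 and 199 CPM in RNIC-CTRL, over 4 times higher in every RNIC-CTRL library than in any RAD library (log2 fold change 2.57 ± 0.19, adjusted p = 1.46e-05). Bcl2l1 and Bid rose by 0.67 ± 0.13 and 0.65 ± 0.14 on the log2 scale. Mcl1, on which stem cells depend, was at 274, 344 and 247 CPM in RAD and 319, 315 and 256 CPM in RNIC-CTRL and did not pass.

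Cell cycle genes changed in 2 cases. Of 35 tested 1 rose, Ccnd1, whose call was not past the threshold without RAD 1 or 2 or without RNIC-CTRL 1, at an adjusted p of up to 0.0631, and 1 fell, Cdk6, at 187, 245 and 223 CPM in RAD and 126, 151 and 147 CPM in RNIC-CTRL (log2 fold change -0.63 ± 0.10, adjusted p = 0.00229). The share called, 5.71%, was under the 20.4% of all genes. Mki67, a marker of dividing cells, was at 905, 721 and 1068 CPM in RAD and 812, 857 and 659 CPM in RNIC-CTRL. Top2a was at 846, 710.2 and 941 CPM in RAD and 815, 933 and 681 CPM in RNIC-CTRL, both with overlapping groups. RAD 2 was the lowest of its group in 29 of 35 genes and RNIC-CTRL 3 of its own in 29. Chromatin regulators fell in 9 cases of 36 (3 without RNIC-CTRL 1 and 4 without RAD 1 or RNIC-CTRL 2) by less than 2-fold and rose in 4. The risers were Hmga2, Hmga1 at 7.01, 5.88 and 7.68 CPM in RAD and 34.8, 35.8 and 28.6 CPM in RNIC-CTRL (log2 fold change 2.27 ± 0.26, adjusted p = 0.000296), Hdac9 (log2 fold change 1.72 ± 0.17) and Cbx7 (log2 fold change 1.68 ± 0.22). The fallers, such as Setdb1 (log2 fold change -0.39 ± 0.065) and Arid1a (log2 fold change -0.34 ± 0.077), did not pass with RNIC-CTRL 3 alone.

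From further lists single genes are given. The share called in either direction was 27.6% for TGF-beta and BMP genes, 29.2% for Wnt genes and 10% for plasma cell markers. It was 50% for ion channel and G protein-coupled receptor genes, against 20.4% of all genes. Smad7, a feedback inhibitor of TGF-beta, was at 63, 77.3 and 52.6 CPM in RAD and 18, 15.3 and 15.6 CPM in RNIC-CTRL and fell by 1.98 ± 0.13 (adjusted p = 6.41e-06), and Tgfbr2, a receptor of the same pathway, fell by 0.71 ± 0.12 on the log2 scale. Tle1, a Groucho co-repressor, was at 34.8, 36.7 and 30.3 CPM in RAD and 10.3, 10.2 and 9.93 CPM in RNIC-CTRL (log2 fold change -1.75 ± 0.18, adjusted p = 0.000159), the 1 faller of 10 TCF and Groucho genes. Of the same 10 genes 1 rose, and the share called in either direction was 20%, near the 20.4% of all genes. Of the Wnt list 5 of 24 rose (1 without RAD 3, 2 without RAD 1 or RNIC-CTRL 1 and 3 without RAD 2) and 2 fell, and none did so with RNIC-CTRL 3 alone. Gsk3b and Lrp6 fell, with log2 fold changes of -0.37 ± 0.062 and -0.42 ± 0.082, and the receptor gene Fzd4 rose from 0.173, 0.132 and 0.257 CPM to 1.71, 2.01 and 0.893 CPM. Sdc1, an antigen of plasma cells also made elsewhere, was at 1.44, 2.08 and 1.75 CPM in RAD and 19.8, 13.5 and 32.6 CPM in RNIC-CTRL (log2 fold change 3.64 ± 0.52, adjusted p = 0.0011), and the other 9 plasma cell markers tested did not pass. Trpc6, a cation channel, was at 0.692, 1.32 and 1.42 CPM in RAD and 21.1, 15 and 29.2 CPM in RNIC-CTRL (log2 fold change 4.24 ± 0.50, adjusted p = 0.000377).

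**Figure D5:**
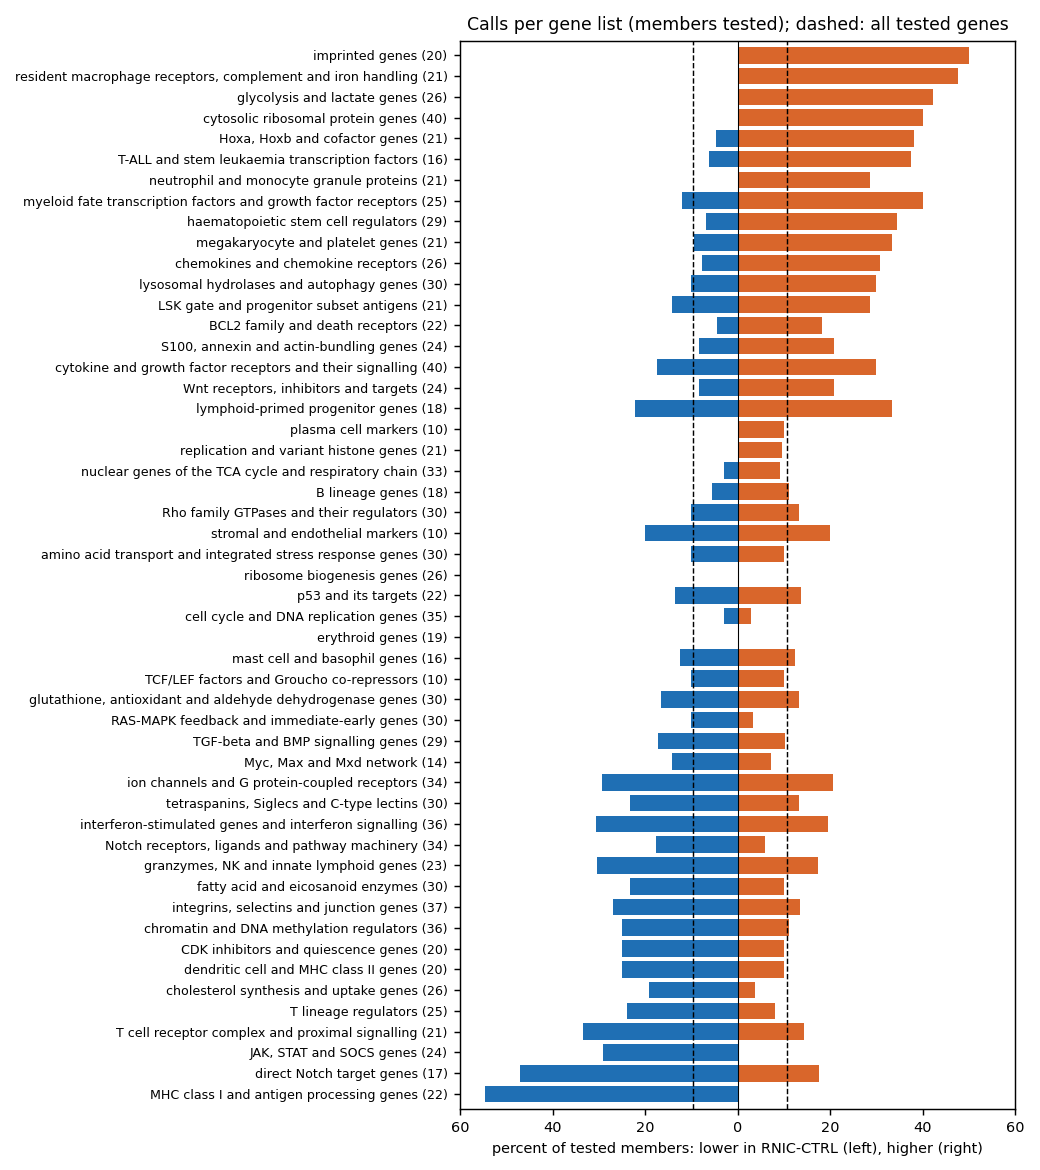
Percent of the tested members of 51 gene lists that were lower (left, blue) or higher (right, orange) in RNIC-CTRL than in RAD at adjusted p under 0.05, with the number tested in parentheses; dashed lines mark the 9.75% and 10.6% of all tested genes. MHC class I and direct Notch targets extend farthest to the left, and imprinted, macrophage and glycolysis genes farthest to the right without any lower member. Lists share members and were chosen with earlier results known.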

How the data were processed

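The authors deposited raw counts per gene, with no normalization, for 39017 genes, of which 15330 had no count in any library, as the values show. Libraries were PicoPure RNA made with TruSeq RNA and Nextera XT kits and sequenced as single 75 nt reads on an Illumina NextSeq, per the labels' protocols. Per the submitters' processing notes the tools included featureCounts 1.4.4 and HISAT2, bcl2fastq 2.17 with cutadapt 1.9.1, and limma with edgeR 3.28.0, and the build was mm10 (roles not given). Strand settings are not given in the sources used here, so antisense and overlapping genes cannot be told apart. Counts of all 12 libraries were fitted here in R 4.3.3 with edgeR 4.0.16 (TMM scaling, filterByExpr by group, 1 mean per group, robust quasi-likelihood test, Benjamini-Hochberg adjustment over 16024 genes), after tests on simulated data. The common biological coefficient of variation was 0.299. DESeq2 1.42.0 and limma 3.58.1 served as alternatives. SE is the log2 fold change over the root of F. Intervals and the floor of 3 counts per library cover counting error only. Symbols were matched on Ensembl gene identifiers, and gene coordinates (GRCm38.p6) came from the GENCODE annotation. Promoters came from RefSeq tables. In all 37607 genes had a symbol and 10971 tested genes a promoter window.

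The 52 gene lists (1214 genes, 1148 tested), the members and the tests were chosen with earlier results of these data known. Genes named in the text were 13 always given, in each direction the 15 with the largest and the 15 most abundant with at least 2-fold change (adjusted p under 0.05, 5 CPM in the higher group, no overlap, call held in all 6 fits that left out 1 library), up to 6 such members per list, and members where 5 or fewer passed in a direction. Members that did not pass are given with values. Heyl, Fbxw7, Prf1, B2m, Gbp2, Igtp, Irgm1, Zbp1, Rsad2, Mx1, Mx2, Irf8, Elane, Hp, Ms4a3, Mecom, Cd34, Hoxa2, Hoxa5 and Hoxa9 were named after their values were seen. Some genes that these rules select are not reported here.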

Additional observations from a re-analysis of the deposited data

Results flagged for a closer look

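The difference between libraries labelled NICD and NOTCHWT was also taken among the 6 libraries labelled TCFKO, and the 2 differences were compared by the interaction term of the same edgeR quasi-likelihood fit, with Benjamini-Hochberg adjustment. Of the 13 genes always given, 12 had an interaction past an adjusted p of 0.05. Kit did not (-0.33, adjusted p = 0.173). These 13 were chosen with earlier results known, and the share of all tested genes past this threshold is not given here. The interaction, TCFKO minus TCFWT on the log2 scale, is given first, then the log2 fold change under TCFWT (RNIC-CTRL minus RAD) and that under TCFKO. The log2 interactions of the Notch receptors were 4.04 for Notch1 (-1.66 and 2.38, adjusted p = 1.43e-05) and 9.31 for Notch3 (-3.51 and 5.80, adjusted p = 5.50e-06). Those of the target genes were 9.65 for Hes1 (-5.28 and 4.37, adjusted p = 0.000388), 11.8 for Hey1 (-7.84 and 4.0, adjusted p = 0.000219), 18.6 for Dtx1 (-9.39 and 9.17, adjusted p = 4.31e-07) and 7.93 for Nrarp (-4.21 and 3.71, adjusted p = 1.07e-08). Tcf7 had an interaction of 10.3 (-1.43 and 8.89, adjusted p = 9.07e-05), although it is the gene whose knockout the TCFKO labels name. For the gate antigen Ly6a it was 2.19 (-0.75 and 1.44, adjusted p = 0.00124).

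The myeloid genes Cebpa and Mpo, with Flt3 and the Notch target Myc, had the opposite signs. The interaction was -13.6 for Cebpa (9.54 and -4.11, adjusted p = 4.43e-05), -9.97 for Mpo (6.84 and -3.12, adjusted p = 0.000388), -5.22 for Flt3 (3.32 and -1.90, adjusted p = 2.88e-05) and -0.941 for Myc (0.57 and -0.37, adjusted p = 0.00128). Notch1, Notch3, Hes1, Hey1, Dtx1 and Nrarp were thus lower in libraries labelled NICD under TCFWT and higher in those labelled NICD under TCFKO.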

How the results depend on the processing

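The counts of 1701 higher and 1562 lower genes, 989 and 612 of them at least 2-fold, and of 371 list members kept within 1.5 times under RLE size factors, both other filters on low counts, DESeq2 (2220 and 2006 higher and lower), limma-voom, the 6 libraries alone (2102 and 1767), the sample sheet term and a covariate for Y-linked transcripts (1360 and 1154). With replicates 1 and 2 only they fell to 749, 752, 516, 380 and 204, and with RNIC-CTRL 3 alone (added after seeing the data) to 548, 366, 455, 252 and 146. Both use fewer samples. Leaving out each library in turn gave 1082 to 1362 higher, 946 to 1254 lower, 701 to 859 and 476 to 588 at least 2-fold, and 262 to 304 list members. Of the 3263 genes called, 880 were called with RNIC-CTRL 3 alone and 2161 with the Y-linked covariate.

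Kit, whose log2 fold change was -0.00375, had the other sign without a filter (0.0043), with at least 1 CPM in 3 libraries (0.0091), in the 6 libraries alone (0.0060), with replicates 1 and 2 only (0.040), and without RAD 3 (0.0089), RNIC-CTRL 1 (0.00949) or RNIC-CTRL 3 (0.029), never past the threshold. Leaving out each library in turn gave -0.071 to 0.029.

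With the replicate number as a block 1427 genes were higher and 1323 lower. Deviations of same-numbered libraries correlated at 0.0201, 0.116 and 0.21. RAD 2 and RAD 3 correlated best with their own number and RAD 1 with RNIC-CTRL 2 (0.0397), so that the numbers were not taken to pair the samples. The median log2 fold change of all genes lay between -0.0213 and 0.00969 in these fits. At these depths genes under 0.0985 CPM are near counting noise. Sex markers, the recurring number in the column names, the eGFP gate and Mx1Cre moved with the groups or within them, and their part was not tested beyond these fits.

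Of the genes named, Elane, Hp, Il7r, Ms4a3 and Tifab lost their call with limma-voom, Ccnd1, Fbxw7, Hoxa2, Hoxa5 and Mx2 with the Y-linked covariate, and Elane, Ms4a3 and Zbp1 in the 6 libraries alone. Hoxa5, Hp and Ms4a3 lost it without a filter, Hoxa5, Ms4a3 and Mx2 with the block, and Ms4a3 with the sample sheet term. Gata2, Hes5, Il2ra, Meis1 and Tcf7 gained one in the 6 libraries alone, Hes5, Il2ra and Ly6a with DESeq2, Hes5 and Ly6a with limma-voom, and Pkm and Ly6a with the sample sheet term.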

Other observations

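Some widely expressed genes spread within the groups more than between them. Gapdh was at 287, 63.2 and 193 CPM in RAD and 52.4, 50 and 316 CPM in RNIC-CTRL, with RNIC-CTRL 3 the highest and the other libraries of its group the lowest (adjusted p = 0.833). Reads of this gene may be shared with its many processed copies. The immediate-early genes Fos and Egr1, which respond within minutes to signals and handling, were low in RNIC-CTRL 3 alone of its group. Fos was at 170.1, 312 and 168 CPM in RAD and 605, 702 and 139 CPM in RNIC-CTRL (adjusted p = 0.476) and Egr1 at 135, 258 and 112 CPM in RAD and 471, 260.1 and 50.2 CPM in RNIC-CTRL (adjusted p = 0.76). These genes were chosen after their values were seen.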
